A study of Rattus norvegicus with 6 samples.

Results

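White and brown fat genes were followed in RNA of the rat renal cortex, the outer zone of the kidney where blood is filtered and most of the filtrate taken back. The set holds 9 genes that mark fat cells or serve them: Fabp4, Adipoq, Plin1, Cfd, Lpl, Cidea, Cidec, Ucp1 and Dio2. 8 of the 9 had a named probe on the array, with 12 probes between them, out of 15284 genes named in all. 7 of the 9 were among the 11804 genes tested. Plin1 had no named probe and is not analysed here, and Dio2 was too dim on too many arrays to be tested. The genes were selected on their detection, their difference between the groups and their variation from array to array in these same data, so those values are given as a description and are not used as evidence.

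The TCEP group held 3 rats given tris(2-chloroethyl)phosphate, a chlorinated organophosphate flame retardant, at 400 mg/kg/day over 4 weeks. The vehicle group held 3 rats given corn oil over the same 4 weeks. All 6 were male Sprague-Dawley rats, an outbred laboratory stock, bought at 5 weeks of age and kept on the same basal diet. Each array carried Cy3-labelled RNA of 1 rat, and the study calls the 3 rats of a group biological replicates.

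Fat cells store triglyceride in lipid droplets and release fatty acids when other tissues need them. White fat cells hold 1 dominant droplet and secrete proteins such as adiponectin, while brown fat cells hold many small droplets and burn fatty acids to make heat. The kidney lies in a bed of perirenal fat and has a fatty sinus around its pelvis, and in rodents perirenal fat can hold brown fat cells beside white ones. Several of these genes are also known outside fat: Fabp4 in endothelium and macrophages, and Lpl in muscle and other tissues that take up fatty acids.

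The promoters of Cidec, Adipoq and Cidea are printed because the levels of the first 2 followed one another over the arrays and those of Cidea did not. RefSeq (GRCr8) gave a promoter window, 250 bases before to 50 after the gene's start, for 7 of the 9 genes, and the 3 windows are chr4:148137066-148137365 on the minus strand for Cidec, chr11:91240120-91240419 on the minus strand for Adipoq, and chr18:63164567-63164866 on the plus strand for Cidea. Capitals mark matches, on either strand, to any of 4 motifs: AGGTCA (a binding element of nuclear receptors), TTNNGCAA (a C/EBP motif), CCAAT and TATAAA.
Cidec: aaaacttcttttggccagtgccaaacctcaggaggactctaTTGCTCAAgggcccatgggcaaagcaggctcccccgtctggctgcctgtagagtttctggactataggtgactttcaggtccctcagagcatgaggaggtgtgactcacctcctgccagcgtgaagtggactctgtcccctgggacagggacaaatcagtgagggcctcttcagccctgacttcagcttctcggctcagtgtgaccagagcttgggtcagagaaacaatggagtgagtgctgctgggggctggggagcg
Adipoq: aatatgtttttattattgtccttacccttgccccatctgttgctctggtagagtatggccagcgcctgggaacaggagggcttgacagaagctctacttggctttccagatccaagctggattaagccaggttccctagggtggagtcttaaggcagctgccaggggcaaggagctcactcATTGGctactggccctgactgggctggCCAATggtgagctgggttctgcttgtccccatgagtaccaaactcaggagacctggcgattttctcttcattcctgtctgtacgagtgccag
Cidea: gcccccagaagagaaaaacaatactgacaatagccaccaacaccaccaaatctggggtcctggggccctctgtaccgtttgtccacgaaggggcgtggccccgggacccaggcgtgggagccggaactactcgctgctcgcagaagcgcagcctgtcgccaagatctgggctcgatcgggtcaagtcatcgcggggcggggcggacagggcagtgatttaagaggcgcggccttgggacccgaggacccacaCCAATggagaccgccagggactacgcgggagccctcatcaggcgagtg
The Cidec window held 1 match to the C/EBP motif, starting at position -209 from the gene's start and read on the other strand. That motif was in 10.5% of the 27457 rat promoter windows. The Adipoq window held 2 matches to CCAAT, at -69 and -42, and the Cidea window held 1, at 2, and 37.7% of all windows held that motif. AGGTCA was in none of the 7 windows, against 15.7% of all windows, and AGGTCA repeated after 1 further base was in none of the 7 and in 0.0583% of all windows. Among the others, the Plin1 window held a C/EBP match at -77 and CCAAT at -207, and the Dio2 window held CCAAT at 36. TATAAA, which 14.3% of all windows held, was in those of Ucp1 at -30 and Dio2 at -220. These matches describe the letters of the windows and show no binding.

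Levels are given throughout as log2 of the processed signal minus log2 of the array's 75th percentile of that signal over non-control probes, so that 0 is a probe as bright as that percentile. A level of one gene is not set against that of another, because probes differ in how brightly they label. Each array measured 67.2% to 69.3% of its 61657 non-control probes well above background, as the scanner software flags them. All TCEP arrays lay on slide 2 with scan time 2 and all vehicle arrays on slide 1 with scan time 1, so slide, scan and treatment cannot be told apart in any difference below. Of 14 marker genes of the renal cortex, 13 had a named probe and all 13 were well above background on all 6 arrays, among them Slc34a1, the phosphate transporter of the proximal tubule, and Nphs1, which encodes nephrin of the podocyte.

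TCEP replicate 1 stood apart from the other 5 arrays. Alb, which encodes serum albumin, had a processed signal of 1940, 10.3 and 7.6 units in TCEP replicates 1, 2 and 3, against 4.3, 12.0 and 11.8 units in the vehicle replicates. Ttr, which encodes the thyroid hormone carrier transthyretin, had 1326, 6.9 and 9.1 units in TCEP rats, against 3.4, 7.6 and 3.9 in vehicle rats. Mup5, one of the near-identical major urinary protein genes that probes may not separate, had 1018, 4.4 and 4.4 units in TCEP rats, against 4.3, 4.2 and 5.0 in vehicle rats. Each of these was well above background on TCEP replicate 1 and on no other array. Of a list of 29 liver genes, written after this array had been seen, 27 were well above background on TCEP replicate 1 and 18 to 20 on each other array. 7 of the 29 (Alb, Ttr, Apoa2, Fgg, Mup4, Mup5 and Amy1) passed on that array alone. By their brightest probes, 20 of the 29 were highest on it and 2 (Serpinc1 and Ahsg) lowest. The 2 dimmer Ahsg probes were instead highest on it, at 67.9 and 76.9 units, against at most 18.0 and 24.0 units on the other arrays. Cps1 and Tat were well above background on no array. The summed level of the list, on a linear scale relative to the 75th percentile, was 181, 167 and 193 in TCEP rats. In vehicle rats it was 176, 196 and 164. Most of that sum came from the bright Serpinc1 (log2 levels of 6.24 to 6.58) and Cyp2e1 (5.70 to 6.14). It therefore cannot show whether dimmer genes such as Alb (0.85 on TCEP replicate 1) were raised. How far liver RNA bears on the fat genes was not tested, and the difference of each fat gene that entered the fit is therefore also given without that array. Differences of other genes are over all 6 arrays. Without that array the median difference of the other white fat genes given below turned to -0.07, that of the lipoprotein lipase partners to -0.05, that of the other fatty acid binding proteins came to 0.09 and that of the Schwann cell and nerve genes to -0.0061.

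**Figure D1:**
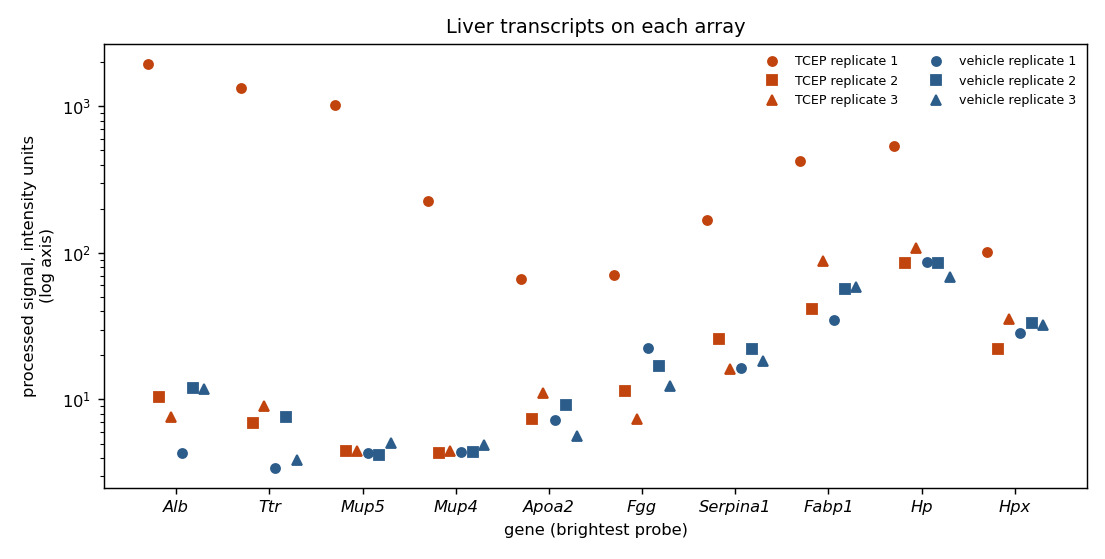
Processed signal (intensity units, log axis) of the brightest probe of 10 liver genes, 1 point per array, with TCEP arrays left of vehicle arrays for each gene. TCEP replicate 1 lies above the other 5 arrays for all 10 genes, at 1940 units for Alb against 4.3 to 12.0 on the others. The 10 genes were picked from the liver list of 29. By their brightest probes, 20 of the 29 were highest on that array and 2 (Serpinc1 and Ahsg) lowest, while the dimmer Ahsg probes were highest on it.

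Among the genes that carry or take up fatty acids, Fabp4 was higher and Lpl lower in TCEP rats on average, with no overlap between the groups for Fabp4 or for the brighter of the 2 Lpl probes. Fabp4, the fatty acid binding protein of adipocytes, had log2 levels of -1.58, -2.70 and -3.67 in TCEP replicates 1, 2 and 3, against -4.14, -3.82 and -4.20 in vehicle replicates 1, 2 and 3. All TCEP arrays lay above all vehicle arrays, but the TCEP arrays were spread over a range far wider than that of the vehicle arrays, and the lowest TCEP array lay close to the highest vehicle array. The means were -2.65 ± 1.05 in TCEP rats and -4.06 ± 0.20 in vehicle rats (SD, n = 3 each), a difference of 1.41 with an SE of 0.51, or 2.65-fold. Without TCEP replicate 1 the difference was 0.87, and that array by itself was 5.57-fold above the vehicle mean. In such bulk RNA, a change in the number of cells of a type and a change in RNA per cell cannot be told apart.

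Lpl encodes lipoprotein lipase, which frees fatty acids from triglyceride-rich lipoproteins at the capillary wall. Its brighter probe had log2 levels of -0.28, -0.58 and -0.37 in TCEP rats, against -0.02, -0.13 and -0.11 in vehicle rats. On that probe every TCEP array lay below every vehicle array. The means were -0.41 ± 0.16 in TCEP rats and -0.08 ± 0.06 in vehicle rats (SD, n = 3 each), a difference of -0.33 with an SE of 0.10, and -0.39 without TCEP replicate 1. The second Lpl probe gave a difference of -0.17 and overlapped between the groups, at -2.03, -2.57 and -2.19 in TCEP rats against -2.0, -2.06 and -2.23 in vehicle rats, and the 2 probes followed each other over the arrays with an r of 0.81.

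The levels of the lipid droplet genes overlapped between the groups. Cidec, whose protein joins droplets into larger ones in white fat cells, had processed signals of 2472, 1517 and 802 units in TCEP rats, against 818, 1816 and 469 units in vehicle rats. Its log2 levels were 1.2, 0.64 and -0.27 in TCEP rats and -0.24, 0.91 and -1.08 in vehicle rats. TCEP replicate 1 was the highest array and vehicle replicate 2 the next, and the groups overlapped. The means were 0.52 ± 0.74 in TCEP rats and -0.14 ± 1.00 in vehicle rats (SD, n = 3 each), and the difference of 0.66 was close to its SE of 0.59. It was 0.32 without TCEP replicate 1, 1.18 without vehicle replicate 2 and 0.19 without vehicle replicate 3.

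Cidea, the related droplet protein that marks brown fat cells in rodents, followed a different order. Its brighter probe had log2 levels of 0.23, -0.81 and -1.06 in TCEP rats and -0.55, -1.03 and -0.74 in vehicle rats. Only TCEP replicate 1 lay above the vehicle arrays, 2.00-fold over their mean, and the other TCEP arrays lay within or just below the vehicle range. The difference was 0.23 with an SE of 0.35 over all arrays and -0.16 without TCEP replicate 1, so that its direction rested on that array. The 2 Cidea probes had an r of 0.99 over the 6 arrays.

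Of the genes for secreted proteins, Adipoq differed little between the groups, and Cfd was lower on average in TCEP rats, with overlapping groups. Adipoq, which encodes adiponectin, had log2 levels of 0.06, -0.04 and -0.09 in TCEP rats and -0.07, 0.18 and -0.46 in vehicle rats. All TCEP arrays lay within the vehicle range. The difference was 0.09 with an SE of 0.16, and its 95% confidence interval ran between -0.31 and 0.50. It turned to -0.08 without vehicle replicate 3. The brighter Adipoq probe read 907 to 1126 units in TCEP rats and 721 to 1095 units in vehicle rats, and its other probe moved with it (r = 0.95).

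Cfd encodes complement factor D, or adipsin, the protease that starts the alternative complement pathway. It had log2 levels of -2.50, -2.79 and -3.24 in TCEP rats and -2.21, -1.26 and -2.59 in vehicle rats. Vehicle replicate 2 was far above the rest, and TCEP replicate 1 lay above the lowest vehicle array. The means were -2.84 ± 0.37 in TCEP rats and -2.02 ± 0.69 in vehicle rats (SD, n = 3 each), a difference of -0.82 with an SE of 0.37. It was -1.0 without TCEP replicate 1 and -0.44 without vehicle replicate 2.

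The genes of heat production lay near the limit of detection. Ucp1, the uncoupling protein of brown fat mitochondria, had processed signals of 45.9, 36.4 and 26.4 units in TCEP rats and 45.7, 33.3 and 16.4 units in vehicle rats, and the last of these was not well above background. The groups overlapped, with a difference in log2 level of 0.23 (SE 0.40). It was 0.09 without TCEP replicate 1 and -0.19 without vehicle replicate 3. Dio2, the deiodinase that makes active thyroid hormone inside brown fat cells, had 31.3, 33.9 and 13.1 units in TCEP rats and 4.1, 4.8 and 4.7 units in vehicle rats. Its brighter probe was well above background on 2 TCEP arrays and no vehicle array, and its other probe on none. TCEP replicate 3 was itself not well above background, so no fold is given for Dio2.

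**Figure D2:**
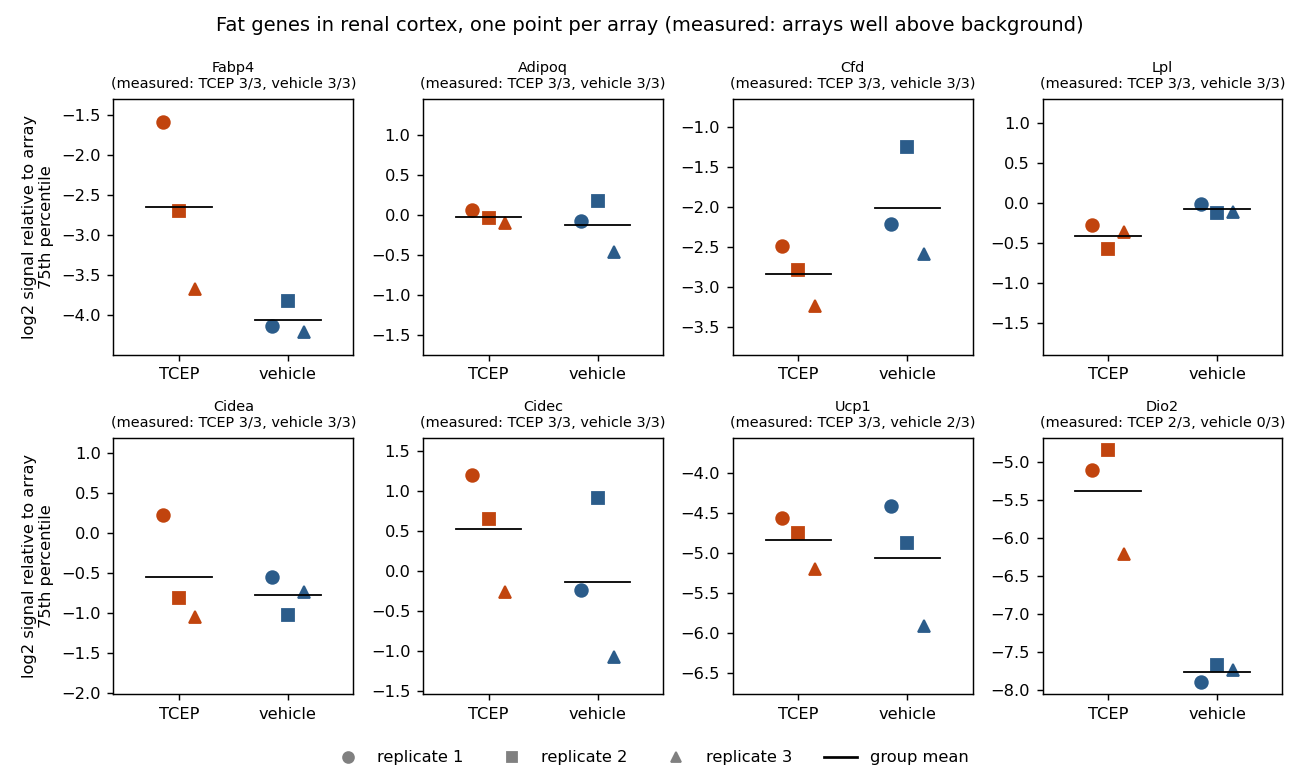
Log2 signal relative to the 75th percentile of each array for the 8 fat genes with a named probe, 1 point per rat, TCEP left and vehicle right, with lines at the group means. Each panel has its own axis, and the heading counts the arrays on which the probe was well above background, which for Dio2 was 2 TCEP arrays and no vehicle array.

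Of the 7 fat genes tested, 5 were higher and 2 lower in TCEP rats, and none passed an adjusted p of 0.05 in limma with Benjamini-Hochberg adjustment, as none of all 11804 genes did (0%). At an unadjusted p under 0.05, 1 was higher (Fabp4) and 1 lower (Lpl), where 983 of all genes (8.33%) passed. The groups did not overlap for the same 2 genes, each by its brightest probe. Over all genes, 8.63% had every TCEP array above every vehicle array and 6.97% had every TCEP array below. The genes had been selected with these differences in view, so nothing is read from these counts. The median difference was 0.23 over the 7 fat genes, or 0.05 without TCEP replicate 1, and 0.01 over all genes tested.

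**Figure D3:**
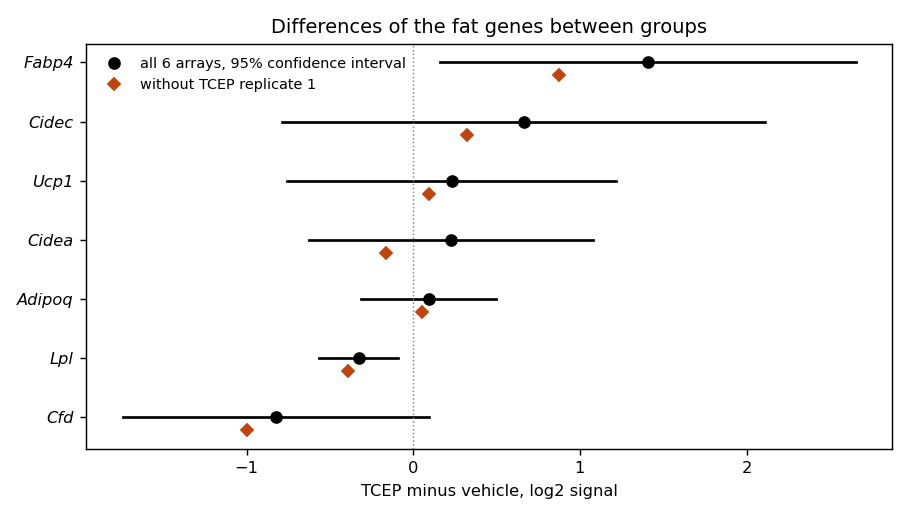
Difference in log2 signal, TCEP minus vehicle, for the 7 tested fat genes: circles with lines are the value over all 6 arrays and its 95% confidence interval, and diamonds the value without TCEP replicate 1. Fabp4 lies at 1.41 over all arrays and at 0.87 without that array, and Cidea turns from above 0 to -0.16.

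Several of the fat genes varied widely between rats. The SD of Fabp4 over the 6 arrays was larger than that of 99.3% of all genes tested, that of Cidec than 98.8%, Cfd than 97.3%, Ucp1 than 95.5% and Cidea than 93.9%. The lowest Ucp1 array, vehicle replicate 3 at 16.4 units, was not well above background, so the spread of Ucp1 holds a background value. Adipoq and Lpl varied less, with 71.4% and 70.1% of genes below them. Between the lowest and the highest array, the level of Fabp4 differed 6.17-fold, that of Cidec 4.84-fold and that of Adipoq 1.55-fold. The spread is part of how the genes were selected and is given without a test.

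Other markers of fat cells were checked against the label. Of 7 adipocyte markers (Fabp4, Adipoq, Plin1, Cfd, Cidec, Lep and Retn), 6 had a named probe and 4 were well above background on all 6 arrays. Lep, which encodes leptin, was well above background on no array, with at most 8.2 units. Retn, which encodes resistin, passed on 2 TCEP and 2 vehicle arrays. The summed level of the 4 markers that were tested (Fabp4, Adipoq, Cfd and Cidec) was taken on a linear scale relative to the 75th percentile. It was 1.95 to 3.85 in TCEP rats and 1.42 to 3.49 in vehicle rats, and the groups overlapped.

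Of 6 brown fat markers (Ucp1, Cidea, Dio2, Cox8b, Elovl3 and Otop1), 3 passed on all 6 arrays, and Elovl3, a fatty acid elongase, on none. The summed level of the 4 brown fat markers that were tested (Ucp1, Cidea, Cox8b and Otop1) was taken on the same linear scale. It was 1.93, 1.23 and 1.1 in TCEP replicates 1, 2 and 3, against 1.02 to 1.16 in vehicle rats. The groups overlapped, and the highest value was that of TCEP replicate 1, the array with the liver transcripts. Ucp3 and Zic1 were also well above background on no array, and Adrb3, the adrenergic receptor of rodent fat cells, on 1 vehicle array alone. Car3, which encodes a carbonic anhydrase abundant in rodent fat, read 58.9 units in vehicle replicate 3 and at most 8.4 units on the other 5 arrays. Vehicle replicate 3 was the lowest of all arrays for Fabp4, Adipoq, Cidec and Ucp1. Markers of both kinds of fat cell were thus measured, while Lep and Elovl3, which define them as much, were at background on every array.

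The fat genes did not move as one over the 6 arrays. Pearson's r for the 21 pairs of the 7 tested genes ran between -0.55 and 0.89 with a median of 0.39, and 4 pairs reached 0.7 while 6 lay below 0. Covariation was part of how the set was chosen, so these values carry no p. Adipoq and Cidec had the highest r, 0.89 (Spearman's rho 0.94), and leaving out the 2 arrays farthest from the Adipoq median gave 0.94. Leaving out any 1 array kept that pair between 0.79 and 0.92.

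Adipoq and Ucp1 had an r of 0.79 (rho 0.49), which lay at 0.07 at the lowest when 1 array was left out and so rested on that array. Fabp4 and Cidec had 0.75 (rho 0.71), between 0.61 and 0.94 with 1 array left out. Fabp4 and Cidea had 0.73 but a rho of 0.09, and r turned to -0.26 at the lowest with 1 array left out. Fabp4 and Lpl had the lowest r, -0.55 (rho -0.77), but it was -0.28 without scaling, -0.06 with spike-in centring, and turned to 0.28 on deviations from the group means. Deviations from the group means, which take out the difference between the groups, gave a median r of 0.44, with 6 pairs at 0.7 or more and 1 below 0. On these, Cfd followed Cidec (0.98) and Adipoq (0.90), and Adipoq followed Cidec (0.90), while Lpl and Cidec had an r of 0.03.

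**Figure D4:**
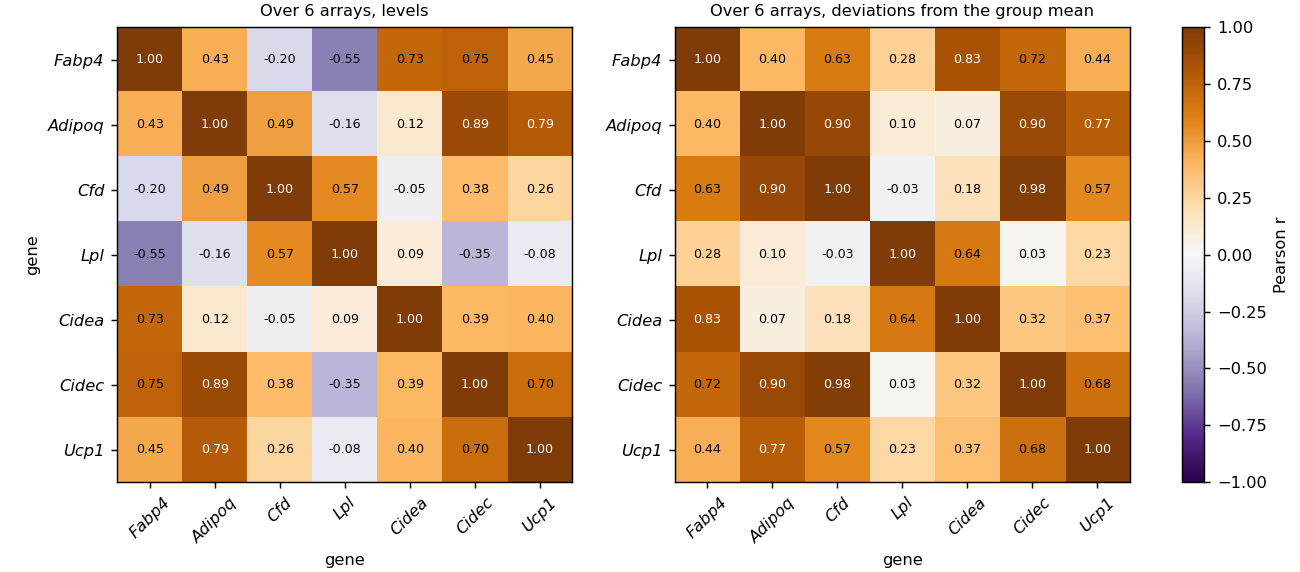
Pearson's r between the 7 tested fat genes over the 6 arrays, on log2 levels at left and on deviations from the group means at right, in colour from -1 to 1. Adipoq and Cidec share 0.89 on levels and 0.90 on deviations, whereas Lpl and Fabp4 have -0.55 on levels and 0.28 on deviations.

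The order of the arrays differed between genes. Cidec was highest on TCEP replicate 1, then on vehicle replicate 2 and TCEP replicate 2, and lowest on vehicle replicate 3. Adipoq was highest on vehicle replicate 2 and then TCEP replicate 1, and Cfd on vehicle replicate 2 and then vehicle replicate 1. Lpl was highest on vehicle replicate 1, and Ucp1 on vehicle replicate 1 and then TCEP replicate 1. Vehicle replicate 2 also had the highest mean level of the 7 tested blood cell genes. Their mean, as a deviation from each gene's own mean over the arrays, was -0.45, -0.01 and -0.13 in TCEP rats and 0.30, 0.86 and -0.57 in vehicle rats. The part of blood in the fat genes' order was not tested.

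The genes most like the white fat genes in profile included genes of the proximal tubule. The mean of Fabp4, Adipoq, Cfd and Cidec, each as a deviation from its own mean, was 0.71, 0.19 and -0.40 in TCEP rats and -0.25, 0.41 and -0.67 in vehicle rats. Among 640 genes with an SD of at least 0.5 over the 6 arrays, the 10 with the highest r to that mean were Cap2, Slc7a13, Gclc, Hnmt, Arg2, Akr1c12l1, Dhrs7l1, Slc22a2, Slco1a5 and Stk32c, with r between 0.987 and 0.995 (n = 6). 95 of the 640 (14.8%) had an r of at least 0.9. The mean itself followed Cidec (0.98) more closely than Adipoq (0.83), Fabp4 (0.77) or Cfd (0.42).

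Slc7a13, an amino acid transporter of the straight proximal tubule, had log2 levels of 7.72, 6.84 and 6.0 in TCEP rats and 6.03, 7.13 and 5.59 in vehicle rats. Arg2, the mitochondrial arginase, had 1.94, 0.91 and 0.08 in TCEP rats and 0.48, 1.43 and -0.15 in vehicle rats. Slc22a2, an organic cation transporter of the proximal tubule, had 5.95, 5.34 and 4.68 in TCEP rats and 5.07, 5.57 and 4.49 in vehicle rats. As with Cidec, TCEP replicate 1 was highest and vehicle replicate 3 lowest for each.

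A list of 14 genes of the straight proximal tubule, written after these likenesses were seen and holding those 3, had mean deviations of 0.50, 0.15 and -0.31 in TCEP rats and -0.34, 0.40 and -0.40 in vehicle rats, and 10 of the 14 were highest on TCEP replicate 1. Its summed level was 513 to 844 in TCEP rats and 467 to 738 in vehicle rats. A list of 10 genes of the convoluted proximal tubule, written at the same time, had mean deviations of -0.29, -0.01 and 0.17 in TCEP rats and 0.10, -0.07 and 0.09 in vehicle rats, and 8 of the 10 were lowest on TCEP replicate 1. Over the 6 arrays, all 10 convoluted tubule genes had an r to Cidec below 0, between -0.87 and -0.40, whereas the 14 straight tubule genes had an r between 0.02 (Acsm3) and 0.98 (Slc22a7). Slc1a1 (0.08) and Slc5a1 (0.32) of the straight tubule list also followed Cidec little. The part of the tubule genes in the result was not tested.

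**Figure D5:**
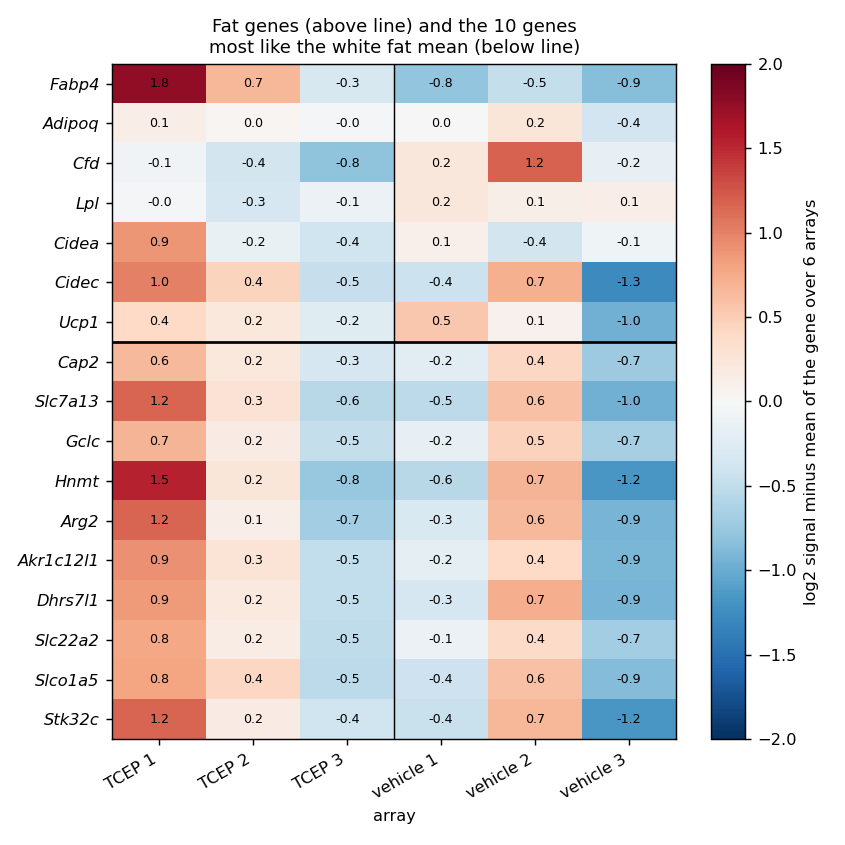
Log2 signal minus the gene's mean over the 6 arrays, in colour and as numbers, for the 7 tested fat genes above the line and the 10 genes most like the white fat mean below it, with TCEP arrays left of vehicle arrays. Cidec shares the pattern of the lower rows, high on TCEP replicate 1 and vehicle replicate 2 and low on vehicle replicate 3, and Lpl and Cidea do not.

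Each fat gene was also set against all varying genes by itself. Cidec was most like Cap2, Slco1a3 and Gpr20, with r between 0.992 and 0.996. Fabp4 was most like Meis3, Lpcat4 and Mdfi (0.968 to 0.972), and Mdfi, an inhibitor of myogenic transcription factors, differed by 1.37 between the groups with an SE of 0.38 (adjusted p = 0.53, limma). Lpl was most like Lcn9, Cyp11b3 and Colq (0.929 to 0.982). Cidea was most like Nrn1l, Rundc3a and the olfactory receptor gene Or52n2f (0.956 to 0.993), and Adipoq most like the olfactory receptor genes Or2n1el1, Or6c3b and Or2n1j (0.960 to 0.973). Cfd was most like Tff3, Gng7 and Defb42 (0.927 to 0.940), and Ucp1 most like Ldhc, Depdc1b and Upb1 (0.926 to 0.942). Some of these likenesses rest in part on background values, below every signal flagged well above background on the array. Such were Lcn9 on TCEP replicates 2 and 3 (-6.25 and -5.78) and Cyp11b3 on TCEP replicate 2 (-5.92). On vehicle replicate 3 they were Or6c3b (-8.03) and Ldhc (-7.92).

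None of the lists of related genes held a gene past the adjusted threshold, as none of all genes did. Of 35 other white fat genes 26 were tested, of which 14 were higher and 12 lower in TCEP rats, with a median difference of 0.03. Mest, an imprinted gene of growing fat cells, differed by -0.67 (SE 0.19), with every TCEP array below every vehicle array, and Thrsp, a lipogenic gene induced by thyroid hormone, by 0.43 (SE 0.16). Nnat differed by 0.19 (SE 0.08) and Lpin1, a phosphatidate phosphatase, by -0.60 (SE 0.27). Lpin1 was at -6.15 on TCEP replicate 2, below every signal flagged well above background on that array, so its difference rests in part on a background value. Of 20 other brown fat genes, a list that also holds Cidea, 15 were tested, 6 higher and 9 lower, with a median of -0.04. Cox8b, a cytochrome oxidase subunit of heart, muscle and brown fat, had log2 levels of -0.63, -0.88 and -1.0 in TCEP rats, against -1.62, -1.31 and -1.23 in vehicle rats, a difference of 0.55 (SE 0.14). Ppargc1a, the coactivator of mitochondrial genes, differed by -0.35 (SE 0.14), and Gk, glycerol kinase, by 0.21 (SE 0.08).

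The droplet genes and the partners of lipoprotein lipase were split between higher and lower. Of 17 lipid droplet and lipolysis genes tested, 8 were higher and 9 lower, with a median of -0.01. Mgll, which completes triglyceride breakdown, differed by -0.25 (SE 0.09), Plin2, the droplet coat protein of most cells, by -0.21 (SE 0.09), and Plin5, the coat protein of oxidative tissues, by -0.48 (SE 0.18). Of 17 lipoprotein lipase partners tested, 10 were higher and 7 lower, with a median of 0.05. Gpihbp1, which carries the lipase across the capillary wall, had log2 levels of -5.21, -5.21 and -5.24 in TCEP rats and -5.64, -6.15 and -5.17 in vehicle rats, and the groups overlapped. Its level on vehicle replicate 2 lay below every signal flagged well above background on that array. Angptl4, an inhibitor of the lipase, differed by -0.18 (SE 0.16).

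Of 10 genes of adiponectin receptors and signalling tested, 8 were higher and 2 lower in TCEP rats, with a median difference of 0.08. Cdh13, which encodes T-cadherin, a binding partner of adiponectin on vessels, had log2 levels of -2.26, -2.40 and -2.25 in TCEP rats against -2.87, -2.88 and -2.85 in vehicle rats. The groups were far apart for its spread, with a difference of 0.57 and an SE of 0.07, but its adjusted p in limma was 0.44. Adipor1, an adiponectin receptor, differed by 0.09 (SE 0.09), and C1qtnf3, a secreted relative of adiponectin, by 0.57 (SE 0.16), with every TCEP array above every vehicle array.

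Of 9 thyroid hormone genes tested, 3 were higher and 6 lower, with a median of -0.06. Dio3, the deiodinase that inactivates the hormone, differed by -0.37 (SE 0.11), with every TCEP array below every vehicle array, whereas Dio1, the deiodinase of kidney and liver, differed by -0.06 (SE 0.12). Of 6 mitochondrial uncoupling carriers tested, 4 were higher and 2 lower, with a median of 0.07, and Ucp2, a relative of Ucp1 found in many tissues, differed by 0.08 (SE 0.14). Of 9 genes of the alternative complement pathway tested, 2 were higher and 7 lower, with a median of -0.10. Cfb, the substrate of factor D, differed by -0.10 (SE 0.20), and Cfp, properdin, by -0.19 (SE 0.13). Cfp had log2 levels of -1.66, -1.62 and -1.67 in TCEP rats and -1.58, -1.18 and -1.61 in vehicle rats. Its groups were thus only just apart, with vehicle replicate 2 well above the rest.

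Of 6 other fatty acid binding proteins, 3 were tested, 2 higher and 1 lower, with a median of 0.36. Fabp1, the liver form, had log2 levels of -1.35, -4.55 and -3.46 in TCEP rats and -4.80, -4.09 and -4.08 in vehicle rats. Like Fabp4, Cidea and Cidec it was highest on TCEP replicate 1, the array with the liver transcripts. The next array was TCEP replicate 3 for Fabp1, TCEP replicate 2 for Fabp4, vehicle replicate 1 for Cidea and vehicle replicate 2 for Cidec. What lies behind these orders was not tested. Fabp5, the epidermal form, differed by 0.36 (SE 0.39) and Fabp3, the heart form, by -0.33 (SE 0.15).

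Marker lists of tissues beside the cortex, or of cells within it that also express fat genes, were counted in the same way. Of 8 adrenal cortex genes tested, 5 were higher and 3 lower in TCEP rats, with a median of 0.03. The other lists had 3 of 6 higher for skeletal muscle (median -0.02), 5 of 7 for mesothelium and capsule (0.06), and 3 of 6 for urothelium and inner medulla (-0.0020). For macrophages 1 of 9 was higher (-0.15), for endothelium 3 of 9 (-0.06), for blood cells 0 of 7 (-0.23), for Schwann cells and nerve 3 of 7 (-0.29), and for the renal cortex 6 of 13 (-0.01). Mbp, which encodes myelin basic protein, differed by -0.31 (SE 0.08), with every TCEP array below every vehicle array. Of the macrophage and endothelium genes, which mark cells that can express Fabp4, Mrc1 differed by -0.59 (SE 0.42) and Cdh5 by -0.12 (SE 0.08).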

How the data were processed

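RNA of the renal cortex of 6 rats (3 TCEP, 3 vehicle) was measured on single-colour Agilent arrays. Per the file headers, Agilent Feature Extraction 10.7.1.1 wrote the scanner files (10.7 per the submitters' processing notes), and the deposited processed signal is a background-subtracted intensity on a linear scale, not scaled between arrays. The authors' files also hold median spot and background intensities, and flags of each spot, deposited as other values (0 or 1). The deposited series matrix holds that signal divided by a constant per array, within 0.146% of its 75th percentile, with medians of 0.104 to 0.107 and no centring seen.

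The 75th percentile of the processed signal was 966 to 1078 units. 12 outlier probes were left out. Probes were named by accession through RefSeq (GRCr8, for names and promoters only): 27460 of 61657 (44.5%) matched. A gene was represented by its brightest probe and was tested if every array of 1 group or both had that probe well above background. The log2 levels of the groups were fitted in R 4.3.3 by limma 3.58.1 (a two-sided eBayes test after lmFit, 5.93 degrees of freedom, Benjamini-Hochberg adjustment over 11804 genes) and the code was tested on simulated data. Tables and figures used matplotlib 3.10.9, pandas 2.3.3 and numpy 2.4.6 under Python 3.11.15.

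The fat genes and the 18 other gene lists were chosen with earlier results of these data known, and the liver, tubule and pancreas lists after the levels described here were seen. Named genes are all fat genes, up to 4 genes per list with the smallest unadjusted p together with family members, receptors and partners, and the genes of highest r (10 to the white fat mean, 3 to each gene). Fewer are described, a selection made after their values were seen. 1 gene of these lists is not reported here. Alternatives were other scalings (quantile, none, spike-in centring), normexp (offset 50, on median signals since the mean signals it was planned on are not used here), other filters and probe rules, the series matrix values, the replicate block, a variance trend, and leaving out each array. Leaving out TCEP replicate 1 and vehicle replicate 2 together was added after seeing the data. Same-numbered rats did not deviate together (r = -0.15, -0.10 and 0.23), so the numbers were not taken as pairs. 6 arrays limit the precision of every value.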

Additional observations from a re-analysis of the deposited data

Results flagged for a closer look

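8 signals lay in genes outside the tested set and were at background on every vehicle array. On TCEP replicate 1, Alb read 1940 processed signal units, Ttr 1326 units, Mup5 1018 units and Mup4 226 units. On the same array, the apolipoprotein gene Apoa2 read 66.7 units, the fibrinogen gene Fgg 70.9 units and the amylase gene Amy1 26.6 units, and none of these 7 genes was well above background on another array. Dio2 read 33.9 units on TCEP replicate 2, and it was well above background on 2 of 3 TCEP arrays and on no vehicle array. No difference between groups of these genes was tested.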

How the results depend on the processing

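No gene passed an adjusted p of 0.05 under any of the 17 alternatives. The count at an unadjusted p under 0.05 was 983, against 384 with spike-in centring, 1568 with normexp background correction and 3416 where each probe was tested by itself, which tests more features. At that p, 50.6% of genes were higher in TCEP rats, against 69.6% without scaling and 66.1% with spike-in centring. No fat gene passed the adjusted threshold under any alternative. Fabp4 (0.87 to 1.92), Cidec (0.19 to 1.18), Cfd (-1.11 to -0.44) and Lpl (-0.42 to -0.17) kept their direction throughout. With 1 array left out, Adipoq ran between -0.077 and 0.24, Cidea between -0.16 and 0.48, and Ucp1 between -0.19 and 0.56. Without vehicle replicate 3, Adipoq turned to -0.077 and Ucp1 to -0.19, without TCEP replicate 1 Cidea turned to -0.16, and Cidea was at -0.29 without TCEP replicate 1 and vehicle replicate 2. The cause of these changes of sign was not tested. Ucp1 had no value where detection on all 6 arrays was asked for. With the replicate block, 850 genes passed at an unadjusted p under 0.05 and 0 at the adjusted threshold. Signals near background, as for Ucp1 and Dio2, limit what can be measured.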

Other observations

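Of 7 pancreas genes, 1 (Cel) was tested, and its difference between TCEP and vehicle rats was -0.13. TCEP replicate 1 had 2 of the 7 well above background, and the other arrays had 1 or 2. The straight proximal tubule genes had a median difference of 0.26 and the convoluted ones of -0.07, with 10 of 14 and 3 of 10 higher in TCEP rats. At an unadjusted p under 0.05 in limma, 1 of the 14 straight tubule genes was higher. Of the 10 convoluted tubule genes 1 was lower, Slc5a12, a lactate transporter. Over all genes tested, 8.33% passed at that p, so nothing is read from these counts, and none passed the adjusted threshold. Slc22a7, an organic anion transporter, had log2 levels of 1.19, -0.32 and -1.09 in TCEP rats and -1.27, 0.48 and -2.11 in vehicle rats.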
